A study of Mus musculus with 4 samples.

Results

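The genes described here start, run and feed DNA replication. They comprise 48 genes, chosen by name from what is known of replication, with earlier results of these data known. Of them 11 mark and license origins, 15 work at the moving fork, 5 belong to the clamp loader and 3 to the single-strand binding complex RPA. A further 5 serve nucleotide supply, 5 histone deposition and 4 the replication checkpoint. Each gene was read from the probe set annotated to it alone with the highest mean over the 4 arrays. Of the 48 genes, 46 were measured above the filter on dim probe sets described with the processing, out of 13489 such genes in all. Chaf1a had no probe set annotated to it alone in the annotation used here. The 4 probe sets of Tyms, the thymidylate synthase gene, lay below the filter, with mean log2 values of 2.92 to 3.62, so that it was not tested.

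Replication starts when the origin recognition complex, with Cdc6 and Cdt1, loads the ring-shaped helicase on DNA in G1, and the kinase Cdc7 with its activator Dbf4 sets it off in S phase. At the fork the GINS complex completes the helicase, polymerases delta and epsilon copy the strands on the sliding clamp Pcna, and ligase joins the fragments. In the epidermis this takes place in the basal layer and in the hair matrix, and cells leave the cycle as they differentiate; many of these genes are transcribed through E2F factors as a cell enters S phase.

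The series asked which transcripts differ soon after the microRNA miR-203 is switched on in newborn mouse skin, on the FVB background. Induced pups had the genotype K14-rtTA/TRE-miR-203/K14-H2BGFP (abbreviated DP), in which the keratin 14 promoter, active in basal keratinocytes, drives both the doxycycline-dependent activator rtTA and a nuclear green fluorescent protein, and the activator drives miR-203. Control littermates, labelled uninduced WT, had the genotype TRE-miR-203/K14-H2BGFP (SP), so they too carried the miR-203 transgene and the fluorescent marker but no activator. Both were taken at postnatal day 4, 24 h after doxycycline. Skin cells were sorted by flow cytometry with a gate that the sources used here do not give. Each group had 2 RNA samples, labelled biological replicates, with 1 array for each. Activator and miR-203 differ together between the groups, so that their effects cannot be told apart. The mature microRNAs of the gene, which lie on the plus strand at chr12:112130927-112130948 (3p) and chr12:112130889-112130910 (5p) in RefSeq on build GRCm38.p6, are shown to identify what was induced, with the seed (bases 2 to 8), by which a microRNA pairs with its targets, in capitals.
miR-203-3p: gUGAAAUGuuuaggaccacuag
miR-203-5p: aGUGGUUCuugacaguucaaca

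The arrays resembled each other closely, with Pearson's r of 0.991 to 0.995 across the kept probe sets for the 6 pairs of arrays. Induced replicate 1 stood apart in sex-linked transcripts: Eif2s3y, which is Y-linked, was at a log2 value of 9.38 in it and 2.52 to 2.82 in the other arrays, and Xist had 5.86 in it and 10.6 to 11.2 in the others. Because this array also had the lowest values of most replication genes, results are given with and without it. Markers of basal keratinocytes were present in every array, with Krt14 at log2 values of 13.96 to 14.13 and all 7 markers measured. Markers of other cells were bright too, with the spinous Krt10 at 14.19 to 14.32 and the hair follicle Krt25 at 12.55 to 13.42. These values therefore do not show which cells the gate kept.

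All 46 measured replication genes were lower on average after induction, and for none did the difference pass the threshold over all probe sets. The differences in mean log2 value ran from -0.67 for Chaf1b to -0.04 for Orc5, with a median of -0.39, which is 1.31-fold lower; the median over all 13489 measured genes was -0.00. In limma the adjusted p-values of the 46 genes ran from 0.300 to 0.962, and 0 of them passed 0.05, as did 0 of all 27022 probe sets (0%) and 0 of all genes (0%), while 2728 probe sets had an unadjusted p under 0.05. With limma's trended and robust variance prior 81 genes passed, none of them among the 46. A total of 28 of the 46 were lower at an unadjusted p under 0.05, against 5.23% of all measured genes. In 35 of the 46, or 76.1%, both induced arrays lay below both controls, against 19.3% of all measured genes. A difference of -0.25 or lower was seen for 36 of the 46 and for 7.72% of all measured genes. The list was chosen with earlier results of these data known, so the counts describe it and give no independent support. In a bulk sample, fewer cells in S phase and less of these transcripts per cell cannot be told apart.

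The size of the differences depended on single arrays, more than their direction did. Without induced replicate 1 the median of the 46 was -0.22, 45 were lower, and 5 were lower at an unadjusted p under 0.05, against 3.54% of all measured genes in that fit. Without induced replicate 2 the median was -0.56 and that count was 33, against 4.82% of all measured genes. Without control replicate 1 the count was 3, against 3.05% of all measured genes, with 42 of the 46 lower (median -0.31), and without control replicate 2 it was 18, against 4.42% (median -0.46). These fits have a lone array in 1 group, whose spread is assumed to be that of the other group. An exact two-sided permutation test of 2 against 2 arrays cannot give a p below 0.333, so that no exact test of a single gene was informative.

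**Figure D1:**
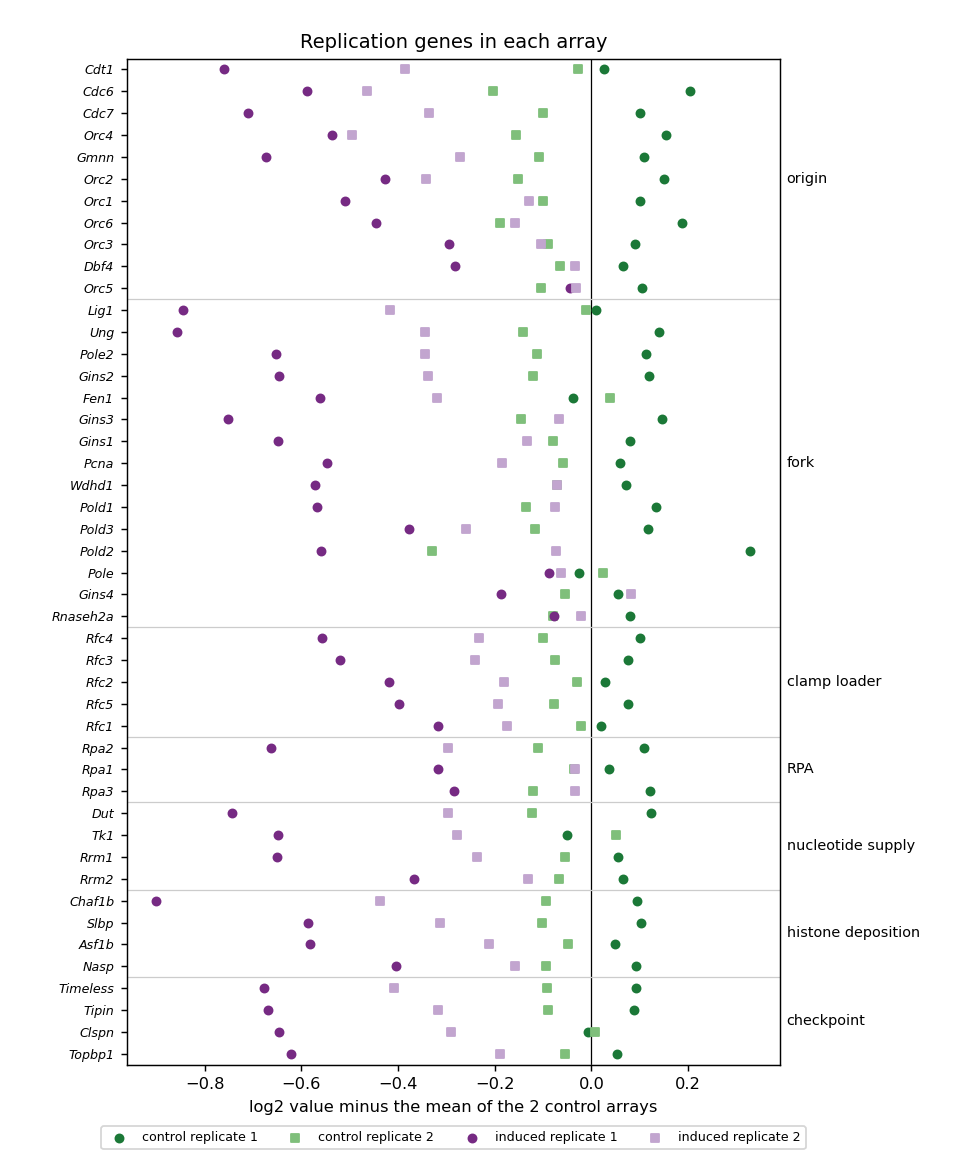
Log2 value of each of the 46 measured replication genes in each of the 4 arrays, minus the mean of the 2 control arrays (x axis), with genes grouped by role (y axis). Induced replicate 1 is the lowest array for 44 genes, against 26.4% of all measured genes, and induced replicate 2 lies between it and the controls for most.

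The 4 arrays took nearly the same order from gene to gene. Induced replicate 1 was the lowest array for 44 of the 46 genes, the exceptions being Orc5 and Rnaseh2a, and for 26.4% of all measured genes. It lay below induced replicate 2 for all 46, with a median gap of -0.31. Control replicate 1 was the highest for 41 of the 46 and for 30.4% of all measured genes. It exceeded control replicate 2 for 42 of the 46, with a median gap of 0.18. The full order, from control replicate 1 through control replicate 2 and induced replicate 2 down to induced replicate 1, was seen for 31 of the 46 genes and for 6.75% of all measured genes. Relative to the control mean, the median of the 46 was -0.56 in induced replicate 1 and -0.22 in induced replicate 2. The genes therefore varied together within each group as well as between the groups, and why they did so was not tested. They were read from the same 4 RNA samples and are not independent counts of the effect.

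**Figure D2:**
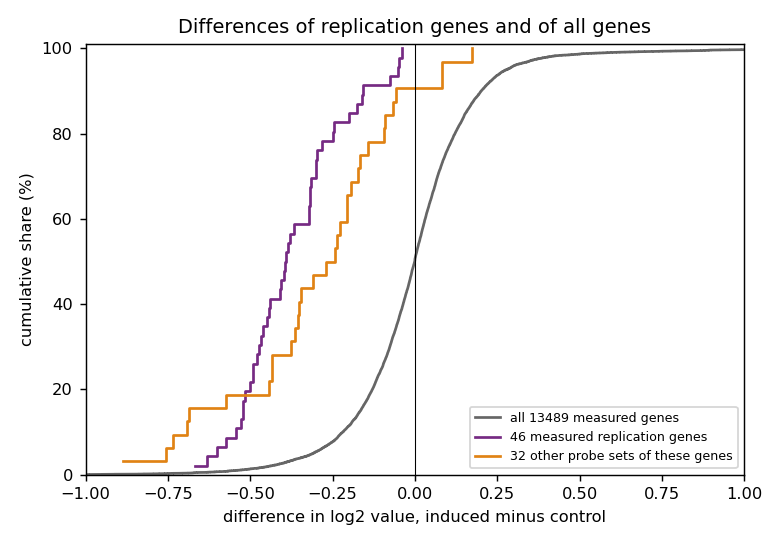
Cumulative share of genes or probe sets (y axis, %) by difference in mean log2 value, induced minus control (x axis), for all 13489 measured genes, the 46 measured replication genes and the 32 other kept probe sets of these genes. The curve of the replication genes ends below 0, while all genes centre on 0.

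Further probe sets of the same genes gave the same direction in most cases. Another 32 probe sets of 25 of these genes passed the filter, of which 29 were lower on average (median -0.26) and 18 were lower without overlap, against 17.8% of such further probe sets over all genes. The 3 with a higher mean, for Slbp (0.08), Nasp (0.17) and Gins3 (0.08), were dim, with mean log2 values of 4.78 or less. The second probe set of Timeless differed by -0.89 ± 0.27 (SE), that of Cdt1 by -0.76 ± 0.17, that of Gins2 by -0.69 ± 0.16 and that of Rpa2 by -0.69 ± 0.21, each by more than the brighter probe set used here. Other further probe sets differed by less than the one used. Those of Cdc7 (-0.14 ± 0.13), Dut (-0.06 ± 0.11) and Clspn (-0.09 ± 0.11) overlapped between groups, against -0.52, -0.52 and -0.47 for the probe sets used. For Orc4 they differed by -0.21 ± 0.10 without overlap and -0.24 ± 0.17 with overlap, against -0.52, and for Orc2 by -0.24 ± 0.14 without overlap and -0.19 ± 0.18 with overlap, against -0.39. The mean over a gene's kept probe sets differed by -0.33 for Cdc7, -0.29 for Dut, -0.28 for Clspn, -0.18 for Slbp, -0.05 for Nasp, -0.13 for Rfc1 and -0.46 for Rfc2, each more than 1.5 times away from the value of the probe set used. For Rfc2 a further x_at probe set differed by -0.73 ± 0.14 and another by -0.35 ± 0.13. The probe sets used for Pold1, Fen1 and Rrm2 (type x_at) and for Gins2 and Nasp (type s_at) can also capture similar transcripts of other genes, so their values are less certain.

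The origin genes had a median difference of -0.39. All 11 were measured and were lower on average after induction, 8 of them without overlap, against 19.3% of all measured genes. Cdt1, the licensing factor that brings the helicase to the origin, had log2 values of 8.59 and 8.54 in the controls against 7.80 and 8.18 in the induced arrays. Both induced values lay below both controls, by a difference of -0.57 ± 0.15 (SE), which is 1.49-fold lower (adjusted p = 0.308). Its inhibitor Gmnn (geminin) had 9.39 and 9.17 in the controls against 8.61 and 9.01 (-0.47 ± 0.16, adjusted p = 0.430). Licensing factor and inhibitor were thus both lower in the induced arrays, without overlap. Cdc6, the loader that works with Cdt1, had 6.32 and 5.91 in the controls against 5.53 and 5.65 in the induced arrays (-0.53 ± 0.16, 1.44-fold lower, adjusted p = 0.369). The kinase gene Cdc7, which triggers firing, had 7.14 and 6.94 against 6.33 and 6.70 (-0.52 ± 0.16, 1.44-fold lower, adjusted p = 0.369). Its activator Dbf4 had 8.41 and 8.28 against 8.06 and 8.31, so that the groups overlapped (-0.16 ± 0.12, adjusted p = 0.751).

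Subunits of the origin recognition complex differed by unlike amounts. Orc4 had log2 values of 8.55 and 8.24 in the controls against 7.86 and 7.90 in the induced arrays, the largest gap of the 6 subunits (-0.52 ± 0.13, 1.43-fold lower, adjusted p = 0.308). The mean over its 3 kept probe sets differed by -0.32 ± 0.12, so that its size depended on the probe set. Orc2 had 7.71 and 7.41 against 7.13 and 7.22 (-0.39 ± 0.13, adjusted p = 0.422). In both subunits the 2 induced arrays were close to each other, unlike in most of the 46 genes. Orc1, the subunit that changes with the cell cycle, had 5.75 and 5.55 against 5.14 and 5.52, which left a gap of 0.03 between the groups (-0.32 ± 0.16, adjusted p = 0.574). Orc3 differed by -0.20 ± 0.12, with a gap of 0.01 between the groups, and Orc6 by -0.30 ± 0.17 with overlap. Orc5 had 7.95 and 7.75 in the controls against 7.80 and 7.82 in the induced arrays, with both induced values inside the range of the controls (-0.04 ± 0.11, 95% interval -0.31 to 0.24). The 95% intervals of Orc2 (-0.71 to -0.06) and Orc4 (-0.84 to -0.19) overlapped that of Orc5, as did those of Orc1 (-0.71 to 0.07), Orc3 and Orc6. Differences between the subunits were not tested. The ratio of Orc4 to Orc5 was lower without overlap after induction, by -0.48 with the probe sets used and not computed with the others, a pair chosen after the values were seen.

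Genes of the fork had a median difference of -0.37, and 9 of the 15 were lower without overlap, against 19.3% of all measured genes. This median was -0.13 without induced replicate 1. Lig1, the ligase that seals Okazaki fragments, had log2 values of 8.58 and 8.56 in the controls against 7.72 and 8.15 in the induced arrays (-0.63 ± 0.16, 1.55-fold lower, adjusted p = 0.303). Its controls were close together and its induced arrays far apart. Fen1, the nuclease that trims the fragments before ligation, had 9.22 and 9.30 against 8.70 and 8.94 (-0.44 ± 0.12, 1.36-fold lower, adjusted p = 0.334). Pcna, the sliding clamp that holds both enzymes, had 12.3 and 12.2 against 11.7 and 12.1 (-0.37 ± 0.15, 1.29-fold lower, adjusted p = 0.486). Ung, which removes uracil from new DNA, had 7.13 and 6.85 against 6.13 and 6.64 (-0.60 ± 0.20, 1.52-fold lower, adjusted p = 0.404). Rnaseh2a, the catalytic subunit of the enzyme that removes ribonucleotides, had 9.02 and 8.85 against 8.86 and 8.91 and overlapped (-0.05 ± 0.11, 95% interval -0.31 to 0.21).

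Among the polymerase genes, Pole2, an accessory subunit of polymerase epsilon, had log2 values of 8.61 and 8.38 in the controls against 8.15 and 7.84 in the induced arrays, the latter in replicate 1 (-0.50 ± 0.15, 1.41-fold lower, adjusted p = 0.363). Pole, the catalytic subunit of the same enzyme, had 6.56 and 6.61 against 6.49 and 6.52, which did not overlap and differed by -0.07 ± 0.09 (95% interval -0.31 to 0.16). The ratio of Pole2 to Pole was lower without overlap after induction, by -0.42 on the log2 scale, a pair chosen after the values were seen. Of the polymerase delta subunits, Pold3 had 7.15 and 6.91 against 6.65 and 6.77 (-0.32 ± 0.12, adjusted p = 0.469), without overlap. Pold1, the catalytic subunit, and Pold2 differed by about as much (-0.32 ± 0.19 and -0.32 ± 0.26) with overlapping groups. Pold1 had 7.40 and 7.13 in the controls against 6.70 and 7.19 in the induced arrays. Pold2 had 7.96 and 7.30 against 7.07 and 7.56. The further probe set of Pold1 differed by -0.35 ± 0.13 without overlap. The ratio of Pold3 to Pold2 overlapped between the groups, with a difference of -0.002. Most pairs compared within a complex were chosen after the values were seen, so the number whose ratios overlapped is not informative.

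The GINS complex, a helicase cofactor of 4 subunits, was uneven. Gins2 had log2 values of 8.17 and 7.93 in the controls against 7.41 and 7.72 in the induced arrays (-0.49 ± 0.15, 1.41-fold lower, adjusted p = 0.373). Gins1 differed by -0.39 ± 0.18, with 7.23 in induced replicate 1 and 7.74 in induced replicate 2 against a lower control of 7.80. Gins3 differed by -0.41 ± 0.24 and overlapped, as induced replicate 2 (5.36) lay between the controls (5.57 and 5.28). Its further, dim probe set differed by 0.08 ± 0.12 with overlap, so that its difference depended on the probe set. Gins4 had 8.40 and 8.29 in the controls against 8.15 and 8.42 in the induced arrays, on either side of the controls (-0.05 ± 0.13, 95% interval -0.36 to 0.26). The ratio of Gins2 to Gins4 was lower without overlap after induction, by -0.44, again a pair chosen after the values were seen. Wdhd1, an adaptor that links the helicase to polymerase alpha, differed by -0.32 ± 0.18, and its value in induced replicate 2 (7.05) equalled that of control replicate 2.

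The clamp loader opens and closes the clamp on DNA. For all its 5 subunits both induced arrays lay below both controls, against 19.3% of all measured genes. Differences ran from -0.39 to -0.25, with a median of -0.30, which is 1.23-fold lower. Rfc4 had log2 values of 8.68 and 8.48 in the controls against 8.02 and 8.35 in the induced arrays (-0.39 ± 0.15, adjusted p = 0.454). Rfc3 had 8.23 and 8.08 against 7.63 and 7.91 (-0.38 ± 0.13, adjusted p = 0.431). Both belong to the small subunits that form the ring with Rfc2 and Rfc5. Rfc2 had 8.33 and 8.27 against 7.88 and 8.12 (-0.30 ± 0.12, adjusted p = 0.481). Rfc5 had 7.95 and 7.80 against 7.47 and 7.68 (-0.30 ± 0.12, adjusted p = 0.494). Rfc1, the large subunit, had 8.43 and 8.39 against 8.10 and 8.24 (-0.25 ± 0.10, adjusted p = 0.510), and its 2 further probe sets differed by -0.09 ± 0.12 and -0.07 ± 0.10 with overlap.

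RPA coats single-stranded DNA behind the helicase. Rpa2, its middle subunit, had log2 values of 8.15 and 7.93 in the controls against 7.38 and 7.74 in the induced arrays (-0.48 ± 0.16, 1.39-fold lower, adjusted p = 0.405), without overlap. Rpa1, the large subunit, had 9.62 and 9.54 against 9.26 and 9.55 (-0.18 ± 0.13, adjusted p = 0.720). Rpa3, the small subunit, had 9.24 and 9.0 against 8.84 and 9.09 (-0.16 ± 0.14, adjusted p = 0.782). For Rpa1 and Rpa3 the value of induced replicate 2 lay between the controls, but a further probe set of Rpa1, nearly as bright, was lower without overlap (-0.27 ± 0.14). The median of the 3 subunits was -0.18, or -0.03 without induced replicate 1. The ratios of Rpa2 to Rpa1 and of Rpa2 to Rpa3 were lower without overlap after induction, by log2 differences of -0.30 and -0.32, and these pairs too were chosen after the values were seen.

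Nucleotide supply genes had a median difference of -0.45 over the 4 measured, all of them lower without overlap, against 19.3% of all measured genes. Dut, which clears dUTP, had log2 values of 9.20 and 8.95 in the controls against 8.33 and 8.78 in the induced arrays (-0.52 ± 0.18, 1.43-fold lower, adjusted p = 0.420). Tk1, the thymidine kinase of S phase, had 8.41 and 8.51 against 7.81 and 8.18 (-0.46 ± 0.15, 1.38-fold lower, adjusted p = 0.395). Rrm1, the large subunit of ribonucleotide reductase, had 9.28 and 9.17 against 8.57 and 8.98 (-0.44 ± 0.16, 1.36-fold lower, adjusted p = 0.437). Its partner Rrm2 had 9.89 and 9.76 against 9.46 and 9.69 (-0.25 ± 0.12, 1.19-fold lower, adjusted p = 0.574), and its further probe sets differed by -0.31 ± 0.16 and -0.23 ± 0.19 with overlap.

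Histone deposition genes had a median of -0.42 over the 4 measured, all lower without overlap, against 19.3% of all measured genes. They held the largest difference of the 46. Chaf1b, a subunit of the chromatin assembly factor that places histones on new DNA, had log2 values of 7.62 and 7.43 in the controls against 6.63 and 7.09 in the induced arrays (-0.67 ± 0.17, 1.59-fold lower, adjusted p = 0.314). Slbp, which binds histone messenger RNAs, had 10.7 and 10.5 against 9.97 and 10.2 (-0.45 ± 0.14, 1.37-fold lower, adjusted p = 0.379). Asf1b, a histone chaperone of dividing cells, had 8.04 and 7.94 against 7.41 and 7.78 (-0.40 ± 0.15, 1.32-fold lower, adjusted p = 0.452). Nasp, a chaperone of linker and core histones, had 9.40 and 9.21 against 8.90 and 9.14, with a gap of 0.07 between the groups (-0.28 ± 0.13, adjusted p = 0.550).

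The checkpoint group had the lowest median, -0.48 over 4 genes, all lower without overlap, against 19.3% of all measured genes. Timeless, which with Tipin holds the helicase and the polymerases together, had log2 values of 7.48 and 7.29 in the controls against 6.71 and 6.97 in the induced arrays (-0.54 ± 0.13, 1.46-fold lower, adjusted p = 0.300, the lowest of the 46). Tipin had 9.63 and 9.46 against 8.88 and 9.23 (-0.49 ± 0.15, 1.41-fold lower, adjusted p = 0.374). Both partners thus had like differences. Clspn (claspin), the adaptor that passes the signal to the kinase Chek1, had 7.0 and 7.01 against 6.36 and 6.71 (-0.47 ± 0.14, 1.38-fold lower, adjusted p = 0.370). Topbp1, which acts in firing as well as in the checkpoint, had 8.90 and 8.79 against 8.22 and 8.66 (-0.41 ± 0.16, adjusted p = 0.485). Without induced replicate 1 the median was -0.30 for the checkpoint, -0.27 for the origin, -0.26 for nucleotide supply and for histone deposition, and -0.19 for the clamp loader. Differences between the 7 roles were not tested.

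**Figure D3:**
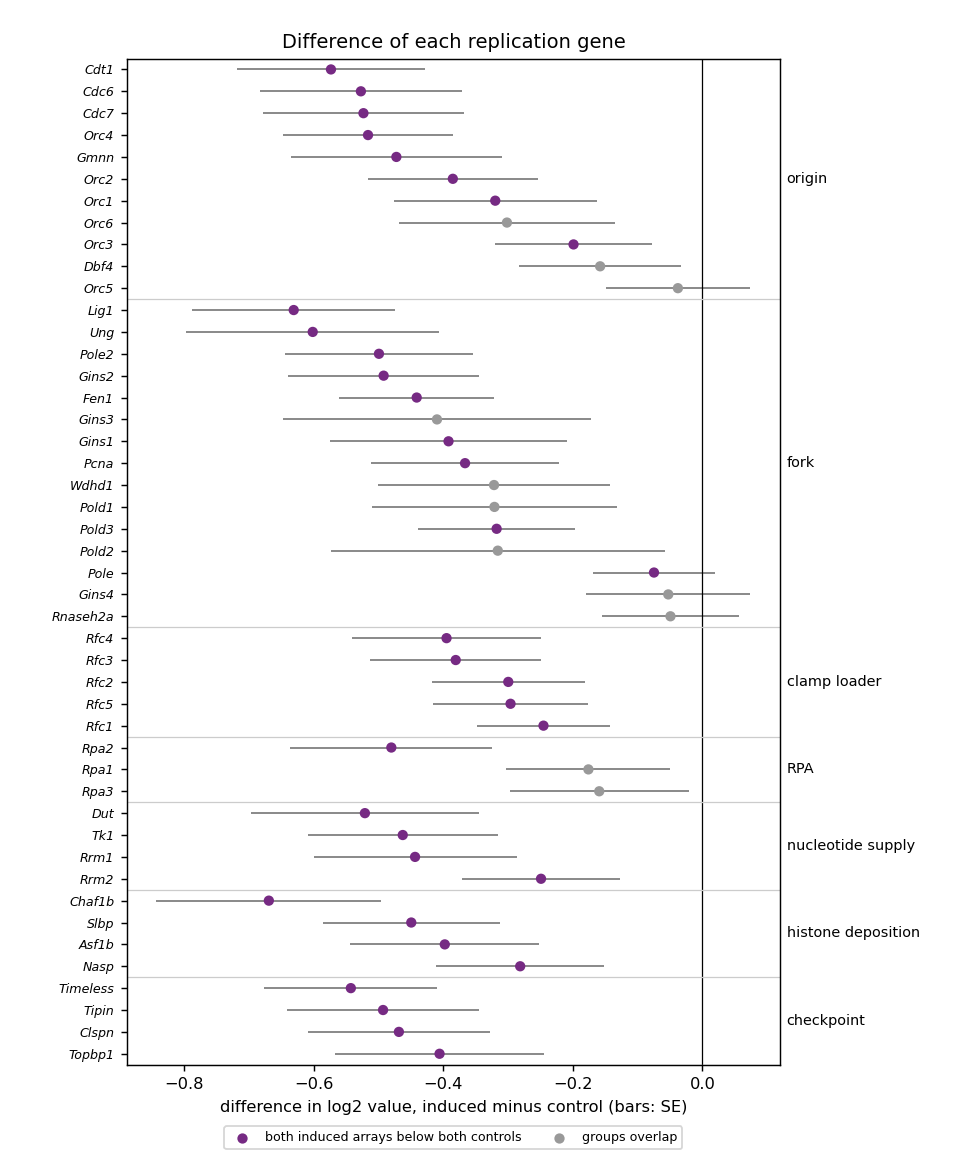
Difference in mean log2 value, induced minus control, for each of the 46 measured replication genes (x axis, bars show the SE of the limma fit), grouped by role (y axis). Purple points mark the 35 genes with both induced arrays below both controls, and grey points the 11 whose groups overlap.

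Genes of the wider pathway differed in the same direction. Of 54 other replication, nucleotide and checkpoint genes 52 were measured, of which 48 were lower on average, 30 without overlap, 24 at an unadjusted p under 0.05, and 0 past the threshold after adjustment. The shares over all measured genes were 19.3% lower without overlap and 5.23% lower at an unadjusted p under 0.05. The median was -0.34, and -0.21 without induced replicate 1. The 4 with the largest test statistics were Pola1, the catalytic subunit of polymerase alpha (-1.19 ± 0.11), Dscc1, a subunit of an alternative clamp loader (-0.93 ± 0.17), the helicase subunit gene Mcm3 (-0.73 ± 0.16) and Dtymk, which makes thymidine diphosphate (-0.54 ± 0.12). Pola1 had log2 values of 7.99 and 7.77 in the controls against 6.68 and 6.69 in the induced arrays, so that both induced arrays were equally low, unlike most of the 46 genes. The polymerase subunits Pold4 and Pole3 were higher without overlap after induction, by 0.08 ± 0.10 and 0.07 ± 0.10.

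Of 29 regulators of the G1/S step all were measured, 20 were lower on average (11 without overlap), 2 were higher without overlap, 6 were lower and 1 higher at an unadjusted p under 0.05, and 0 passed after adjustment. Over all measured genes 19.3% were lower and 20.1% higher without overlap, and 5.23% lower and 4.4% higher at an unadjusted p under 0.05. The median was -0.08, and -0.00 without induced replicate 1. E2f1, an activator of S phase genes, differed by -0.39 ± 0.12, Tfdp2, a partner of E2F proteins, by -0.30 ± 0.10, the pocket protein gene Rbl1 by -0.53 ± 0.19 and the ubiquitin ligase subunit gene Skp2 by -0.57 ± 0.14. E2f2 lay higher in both induced arrays (0.29 ± 0.10, adjusted p = 0.443). Of 24 genes of mitosis 23 were measured, of which 22 were lower on average, 12 without overlap, 4 at an unadjusted p under 0.05 and 0 after adjustment, against the same shares over all genes, with a median of -0.24 that was -0.06 without induced replicate 1. Mad2l1, a spindle checkpoint gene, differed by -0.49 ± 0.12, Bub1 by -0.48 ± 0.14, Prc1 by -0.36 ± 0.11 and Cdk1 by -0.33 ± 0.13.

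Markers of other cell types were read beside these genes. Of the 11 measured hair follicle markers 8 were higher in the induced arrays without overlap, against 20.1% of all measured genes, and 8 at an unadjusted p under 0.05, against 4.4%, with a median difference of 0.79. Their summed signal on the linear scale was 13359 and 16583 in the controls against 22723 and 27589 in induced replicates 1 and 2. The 7 basal keratinocyte markers summed to 42532 and 42812 in the controls against 37985 and 36748 in the induced arrays, 6 of them lower without overlap against 19.3% of all measured genes, with Col17a1, a collagen of the hemidesmosome, at -0.71 ± 0.11. The 6 spinous markers summed to 90486 and 90812 against 89623 and 85261, with 4 lower without overlap and a median of -0.06. Melanocyte markers summed to 3849 and 4029 against 3441 and 5319, and immune markers to 4359 and 3290 against 4292 and 3231, with overlapping ranges. Only 3 of 6 dermal fibroblast, 2 of 5 endothelial, 2 of 4 red cell and 2 of 4 skeletal muscle markers were measured, and Col1a1, Lum, Pdgfra, Pecam1, Cdh5, Emcn, Hba-a1, Myh4 and Tnnt3 lay below the filter. The dermal fibroblast markers summed to 370 and 354 in the controls against 244 and 454 in the induced arrays, the endothelial ones to 63.3 and 71.1 against 61.7 and 52.0, those of red cells to 55.7 and 57.1 against 86.3 and 78.9, and those of skeletal muscle to 82.3 and 83.1 against 85.1 and 74.3. The part of these cell types in the values of the replication genes was not tested.

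**Figure D4:**
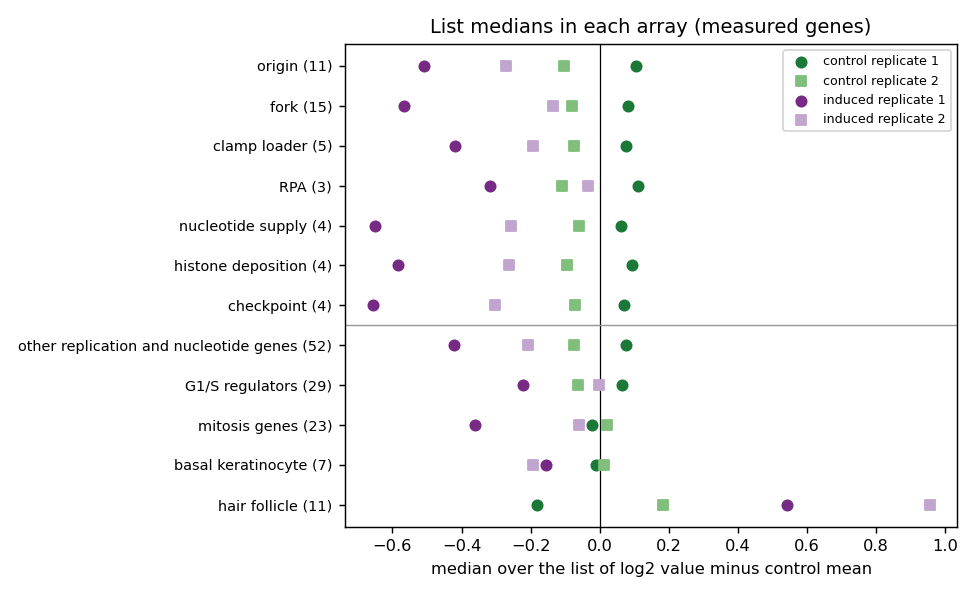
Median over each list of the log2 value minus the control mean (x axis), in each of the 4 arrays, for the 7 roles of the replication genes and 5 further lists (y axis, number of measured genes in brackets). All 7 roles and the mitosis list are lowest in induced replicate 1, while the hair follicle list is highest in induced replicate 2.

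The promoters of these genes were searched for letters of motifs known from cell cycle genes, chosen after the values were seen. The promoter table, credited to RefSeq with build GRCm38.p6, held 41 of the 48 genes, and Gmnn, Gins1, Gins2, Gins4, Pole, Rfc2 and Tipin were not matched. The first listed start of each gene was used, from 250 bases before to 50 after it, on both strands. The E2F-type motif, with the letters TTTCCCGC, TTTCGCGC, TTTGCCGC or TTTGGCGC, was present in 11 of the 41 promoters (26.8%), against 2.32% of all 27025 promoters and 3.89% of the 10856 promoters of measured genes. The CCAAT box (CCAAT) was present in 46.3% against 38.1% of those of measured genes and 37.9% of all. The GC box (GGGCGG) was present in 73.2% against 61.5% and 35.9%. The CHR element of late cell cycle genes (TTTGAA) was present in 14.6% against 12.0% and 18.1%. The median G+C content was 63.3% in the 41 promoters, 60.3% in those of measured genes and 52.7% in all. A match is a run of letters and not a bound site. Many of these genes, chosen by name, are transcribed through E2F factors, so the E2F-type share says nothing about the difference after induction.

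The 12 E2F-type matches, none of which overlapped a GC or CCAAT box, lay before the start in 6 cases and after it in 6, and 10 of the 12 began within 100 bases of it. They are shown because of the motifs searched this one has the largest ratio of its share here to its share elsewhere, 1 for each of the 11 genes, as 30 bases read on the strand of the motif, which is in capitals.
Orc1 (chr4:108579416-108579445, minus strand): aggagaaaactTTTCGCGCcactaaccgaa
Orc3 (chr4:34614965-34614994, minus strand): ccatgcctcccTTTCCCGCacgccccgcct
Cdc6 (chr11:98908002-98908031, minus strand): accccaggcgaTTTCCCGCtctccaccggc
Cdt1 (chr8:122568035-122568064, plus strand): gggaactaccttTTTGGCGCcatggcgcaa
Gins3 (chr8:95633507-95633536, minus strand): ttcaaactcgcTTTCCCGCgccgcactcgc
Pold1 (chr7:44548766-44548795, plus strand): gctTTTCCCGCcacaagatacgccgccgtg
Pold3 (chr7:100121467-100121496, minus strand): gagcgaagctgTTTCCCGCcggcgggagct
Pole2 (chr12:69228162-69228191, plus strand): catgttcgcgaTTTGGCGCcaccgccgacg
Rfc3 (chr5:151651200-151651229, minus strand): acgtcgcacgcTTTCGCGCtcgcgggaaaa
Clspn (chr4:126556990-126557019, minus strand): gaagttcgagcTTTCGCGCccagacgcggt
Topbp1 (chr9:103305187-103305216, minus strand): cgggaaccgacTTTCGCGCcaaccgagcgg

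These windows belong to genes from 4 of the 7 roles: Orc1, Orc3, Cdc6 and Cdt1 of the origin, Gins3, Pold1, Pold3 and Pole2 of the fork, Rfc3 of the clamp loader, and Clspn and Topbp1 of the checkpoint. The 11 genes with a match had a median difference of -0.41 (from -0.57 to -0.20), and the 28 measured genes without had a median of -0.39 (from -0.67 to -0.04). The ranges of the genes with and without a match overlapped. Rfc3 had a further match 1 base after the start, on the other strand.

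**Figure D5:**
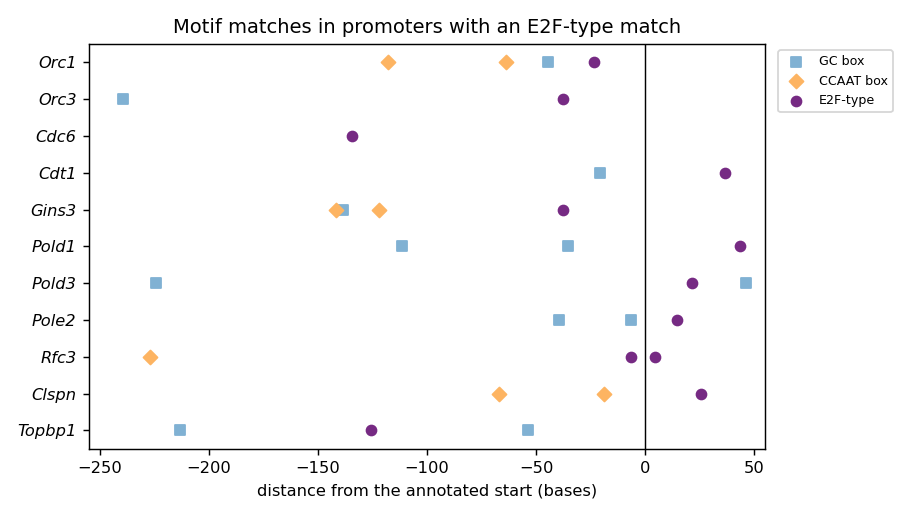
Positions of E2F-type, CCAAT and GC box matches (points at the motif's centre) along the 11 promoters with an E2F-type match, as distance from the annotated start in bases (x axis) by gene (y axis). E2F-type matches gather near the start, 10 of the 12 within 100 bases.

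Of the 6 genes with the largest test statistics whose promoters were matched, Timeless, Cdt1 and Chaf1b have a single listed start, and the 250 bases before it are printed to show how unlike these promoters are. Capitals mark GC box letters on either strand.
Chaf1b (chr16:93883651-93883900, plus strand): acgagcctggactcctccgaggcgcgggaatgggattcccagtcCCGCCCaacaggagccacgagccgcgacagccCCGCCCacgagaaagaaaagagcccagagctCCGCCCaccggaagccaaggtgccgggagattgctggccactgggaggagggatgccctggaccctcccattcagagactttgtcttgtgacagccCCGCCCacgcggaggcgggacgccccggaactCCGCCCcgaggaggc
Cdt1 (chr8:122567765-122568014, plus strand): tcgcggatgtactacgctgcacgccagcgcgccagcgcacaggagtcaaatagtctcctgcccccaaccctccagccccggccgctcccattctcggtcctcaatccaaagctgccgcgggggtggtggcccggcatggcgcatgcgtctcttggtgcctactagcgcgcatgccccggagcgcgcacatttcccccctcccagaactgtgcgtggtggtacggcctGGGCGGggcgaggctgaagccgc
Timeless (chr10:128237816-128238065, plus strand): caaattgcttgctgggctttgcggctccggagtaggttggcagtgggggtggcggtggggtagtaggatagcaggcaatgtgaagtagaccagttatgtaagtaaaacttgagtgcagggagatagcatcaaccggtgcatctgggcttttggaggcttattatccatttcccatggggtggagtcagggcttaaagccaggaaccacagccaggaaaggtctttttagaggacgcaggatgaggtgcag

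The Chaf1b stretch holds 5 GC boxes, that of Cdt1 holds 1, and that of Timeless holds none, with 0 E2F-type matches and 0 CCAAT boxes in any of the 3. Chaf1b and Timeless differed by -0.67 and -0.54. The E2F-type match of Cdt1 lies 33 bases after its start, outside the stretch printed.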

How the data were processed

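Biotin-labelled RNA of the 4 samples was read on 4 Affymetrix mouse arrays. The deposited values are log2 values from RMA, per the submitters' processing notes, with no version given; RMA corrects background, quantile normalizes and summarises probes, so it hides changes in the amount of RNA per cell. Of 45101 probe sets, 64 control probe sets were left out. Of the other 45037, 34945 carried a single gene in the platform annotation, 932 several and 9160 none, and current symbols came from the RefSeq table (GRCm38). Probe sets with a mean at or above the 40th percentile (4.17) were kept, 27022 in all. Columns of other samples numbered 0.

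Induced and control arrays were compared with limma 3.58.1 in R 4.3.3 (lmFit, eBayes, two-sided, Benjamini-Hochberg over all 27022 probe sets, threshold 0.05), with 2 residual and 3.82 prior degrees of freedom. Differences are induced minus control, with the SE of the model. Lists are described by counts and medians. The script was tested on simulated data with 200 changed probe sets. It recovered 1.57% of 1.5-fold, 56.6% of 2-fold and 96.4% of 4-fold changes at the same threshold. The mean number of false calls was 5.2. Changes of the size seen in the replication genes would thus mostly be missed. The members, lists and roles were chosen with earlier results of these data known, and the motifs after the values were seen. Every member could be named; full values are given for up to 5 per role with the largest absolute statistic and for others that a comparison within a complex needed, and in other lists for up to 4, with further genes chosen after their values were seen. The labels do not say whether replicates came from separate litters, so p-values measure the spread between these samples, and the number of arrays limits the precision. Alternatives were no filter, a 60th percentile filter, 2 other normalizations, a trended robust prior in eBayes, averaging the probe sets of each gene, a block for the replicate number, and the omission of single arrays.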

Additional observations from a re-analysis of the deposited data

How the results depend on the processing

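All measured replication genes were lower on average under the alternatives run, except that, without control replicate 1, 42 of the 46 and, without induced replicate 1, 45 of the 46 were. No alternative brought a replication gene past the adjusted threshold, and the 330 values of the 30 genes followed through the alternatives kept their direction. Over all genes 81 passed with eBayes with trend and robust, and 0 to 2 with an array left out. The count lower at an unadjusted p under 0.05 was 3 to 33 with an array left out, and 24 to 32 under the alternatives of filter, normalization, variance prior and probe set. Under these alternatives of filter, normalization, variance prior and probe set, 4.62% to 5.85% of all genes tested were lower at that p. The shares with an array left out are given above, beside the count of each fit. The median of the fork genes was -0.57 to -0.13 with an array left out, and that of all 46 was -0.56 to -0.22. With the replicate number as a block, same-numbered arrays had deviations correlating at -0.10, and 0 genes passed. The count at an unadjusted p under 0.05 was then 20, against 3.99% of all measured genes. A block with the numbers crossed, added after the data were seen, gave 35, against 5.66% of all measured genes, and 0 genes passed. With 2 arrays a group the precision is low, and a missed threshold does not show that a gene was the same in both groups.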
